A study of Mus musculus with 4 samples.

Results

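The loci described here are short stretches of the mouse genome that the expression files list by position alone (chromosome, start, end and strand) rather than by a gene. They were chosen by length and isolation. Loci on the same strand were chained wherever the gap between neighbours was at most 1000 bp, and a locus was kept when it stood alone in its chain and was shorter than 900 bp. This left 17299 of the 60983 position-named loci (28.4%), in files of 115821 rows that also hold 54838 annotated genes. Their lengths ran from 216 to 897 bp with a median of 441 bp, and all were multiples of 3. Of the 17299 loci, 8559 lay on the plus strand and 8740 on the minus strand. The nearest other locus on the same strand was between 1003 and 4408754 bp away, with a median of 22826 bp. At the length limit, 31 loci of 897 bp lay just inside and 27 solitary loci of 900 bp just outside. Of the former 2 had any reads, with summed counts of 0, 0, 1 and 1 in control 1, control 2, knockdown 1 and knockdown 2, and of the latter 2 had any, with 3, 0, 0 and 1.

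The study sequenced total RNA of Hepa1-6, a mouse line of hepatocellular carcinoma cells, in 4 libraries. In 2 of them the cells carried an shRNA labelled NC and are listed as wild type for Setdb1 (control 1 and control 2), and in the other 2 they carried an shRNA labelled Set and are listed as a Setdb1 knockdown (knockdown 1 and knockdown 2). The series' design text calls the cells subclones, and how many clones stand behind each group, when after shRNA delivery they were taken and whether they were selected was not stated in what was read here. Nothing in the labels says that libraries of a group came from separate cultures, so every p-value rests on library-to-library spread that may be technical.

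Setdb1 is an enzyme that methylates histone H3 at lysine 9, a mark of closed chromatin. With the co-repressor Trim28 and the KRAB zinc finger proteins that bind particular DNA sequences, it is known for keeping endogenous retroviruses and other retroelements silent. Names of this form are used for catalogued open reading frames of endogenous viral elements, remnants of retroviral gag, pro, pol and env genes, but neither the labels nor the files say where the names come from. A retroviral gag gene encodes the nucleocapsid, whose zinc knuckles hold the viral RNA, and the retroviral protease is an aspartic protease.

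The sequence of a locus could be read where it lies within an annotated GENCODE exon. Of 83 loci wholly inside 1 exon, 83 had no stop codon before their last codon in the frame that starts at their first base, while 1 began with ATG and 1 ended with a stop codon. Their median GC content was 40.1%. With those exceptions they are stretches of open frame without their own start or stop codon. A further view came from the 10 loci that overlap protein-coding sequence on their own strand, among them those in Cnbp, Ctsd, Ctse, Fam90a1b, Gin1, Park7, Sugp2, Taf1 and Tnfrsf22. In 9 of the 10 the frame of the locus was the frame of the cellular protein. These 10 lie over coding sequence of genes and do not stand for all 17299 loci. Of the 10, 1 held a CCHC zinc knuckle (Cnbp) and 1 an aspartic protease motif (Ctse). Coding sequences of 3 of them are printed below, 5′ to 3′: Cnbp and Ctse for these motifs and Ctsd for its reads. The Cnbp locus also had reads. Cnbp and Ctse were chosen for printing after their values had been seen. Capitals mark the codons of a CCHC zinc knuckle in Cnbp and of an aspartic protease active-site motif (Asp, Thr or Ser, Gly, Thr) in Ctse. The sequences are from GENCODE transcripts on GRCm38, at chr6:87845122-87845323 on the minus strand, chr1:131672204-131672345 on the plus strand and chr7:142380766-142380977 on the minus strand.
Cnbp: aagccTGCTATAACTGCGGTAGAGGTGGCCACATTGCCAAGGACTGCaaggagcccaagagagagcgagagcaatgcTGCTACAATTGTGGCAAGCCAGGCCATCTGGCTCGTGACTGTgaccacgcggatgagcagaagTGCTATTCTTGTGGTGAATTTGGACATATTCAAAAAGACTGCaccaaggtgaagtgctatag
Ctse: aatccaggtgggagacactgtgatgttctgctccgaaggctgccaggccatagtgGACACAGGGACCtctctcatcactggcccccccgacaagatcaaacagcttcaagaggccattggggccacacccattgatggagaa
Ctsd: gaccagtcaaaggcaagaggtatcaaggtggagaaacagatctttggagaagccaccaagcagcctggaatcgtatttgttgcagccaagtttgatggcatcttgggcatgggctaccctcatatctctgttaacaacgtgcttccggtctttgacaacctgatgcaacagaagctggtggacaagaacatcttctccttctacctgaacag
Cnbp encodes a cellular nucleic acid binding protein built from zinc knuckles of the retroviral type, and 3 of them lie in this 202-base stretch. Ctse encodes cathepsin E and Ctsd cathepsin D, aspartic proteases of the endosome and lysosome. The Ctse stretch of 142 bases holds 1 active-site motif, and the Ctsd stretch of 212 bases holds none. For scale, the knuckle pattern was found on either strand in 33 of 32851 RefSeq promoters of 300 bases (0.1%, GRCm38.p6) and the protease pattern in 296 of them (0.901%). Promoters were searched in any frame and the loci only in their own, so these shares are no test of the loci. Gin1, the gene of gypsy retrotransposon integrase 1, is another of the 10, with 272 of the 294 bases of its locus in coding sequence. Its locus had 4.58, 0, 0 and 1.86 expected counts in control 1, control 2, knockdown 1 and knockdown 2.

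Almost none of the loci had reads. In all 4 libraries 16912 of the 17299 loci (97.8%) were at 0, and 387 (2.24%) were above 0 in at least 1. Of these 363 reached 1 expected count in some library, and 32 reached 10 counts over the 4 libraries together. An expected count is the number of reads that RSEM assigns to a locus, and it can be fractional where a read fits several places. Of the 387 loci 72 had such a fractional value. The library totals were nearly equal, from 19513567 to 19615440 counts, so raw counts and CPM, which divides them by the library total, compare libraries almost alike. At this depth a count of 0 in a library allows up to 3 counts, and such intervals and floors cover counting error only.

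More loci were detected in the knockdown libraries than in the controls. At least 1 count was found for 105 and 127 loci in control 1 and control 2, and for 176 and 155 in knockdown 1 and knockdown 2. The groups did not overlap, and the mean rose from 116 to 165.5 loci, a ratio of 1.43. With 2 libraries a group no permutation test of a single value can pass 0.05, so this ratio carries no test. The ratio of the annotated genes with at least 1 count was 1.04. Among the other classes of position-named loci it was 1.14 for solitary loci of 900 bp or longer, 1.05 for pairs, 1.31 for arrays of 3 or more loci all under 900 bp, and 1.09 for arrays with a longer locus. In each of these other classes but the pairs, both knockdown libraries again lay above both controls. Whether these ratios differ from one another was not tested. The share of loci above 0 was 15.3% among solitary loci of 900 bp or longer, 13.4% among pairs, 3.56% in arrays of short loci and 37.3% in arrays with a longer locus. Among annotated genes it was 39.4%, so the ratios compare rows of unlike detection.

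The difference in detected loci lay mostly between genes, as did most of the loci. By the GENCODE annotation 13438 of the loci (77.7%) were intergenic, and there 54, 68, 112 and 90 loci were detected in control 1, control 2, knockdown 1 and knockdown 2, a ratio of 1.66. Without the loci that entered the test described below, the intergenic counts were 49, 64, 104 and 82 and the ratio 1.65. The 3861 loci inside a gene on either strand (22.3%) gave 51, 59, 64 and 65, a ratio of 1.17. Of these, 1315 lay in an intron on the gene's own strand, with 27, 25, 32 and 26 detected, and 2390 in an intron on the other strand, with 18, 28, 27 and 31. For both intronic classes the ranges of the groups touched or overlapped, while over all loci inside a gene both knockdown libraries lay above both controls. Exons held few of the loci, 100 on the gene's strand and 56 on the other strand, but these were above 0 most often, at 15.0% and 10.7%, against 1.61% of the intergenic loci. The difference between intergenic and genic ratios was not tested.

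**Figure D1:**
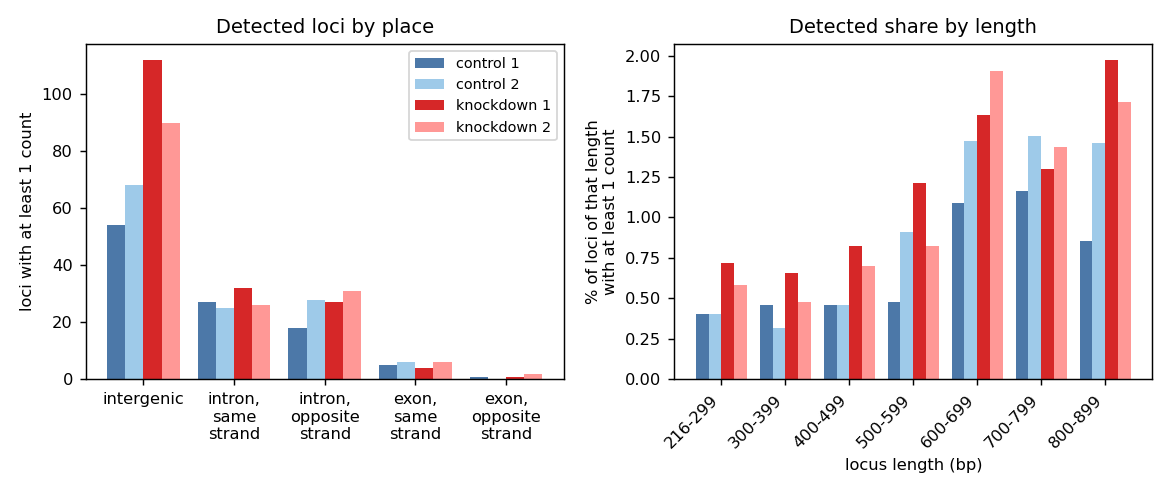
Left, number of solitary loci under 900 bp with at least 1 expected count in each library, by place relative to annotated genes. Right, the percentage of loci of each length range (bp) with at least 1 count in each library. The intergenic bars are 54 and 68 for control libraries but 112 and 90 for knockdown libraries, and in every library each range from 600 bp up stands above the shortest range.

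The longer the locus, the more often it had reads. The share above 0 in any library was 1.17% from 216 to 299 bp, 1.51% from 300 to 399 bp, 1.77% from 400 to 499 bp, 2.3% from 500 to 599 bp, 3.7% from 600 to 699 bp, 3.76% from 700 to 799 bp and 4.37% from 800 to 899 bp. The effective length, the number of positions at which RSEM lets a fragment start, falls faster than the length: its median was 40.2 in the shortest range and 588 in the longest. A short locus therefore offers fewer places for a read, and the part of this in the trend was not tested. By chromosome, X held 2021 and Y 1829 of the loci. On X 1, 10, 17 and 15 loci were detected in control 1, control 2, knockdown 1 and knockdown 2, and on Y 3 loci had any read.

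Loci seen in a single group were more often seen in the knockdown, as were position-named loci and rows in general. Of the loci, 28 were at 0 in both controls with at least 1 count in both knockdown libraries, and 8 showed the reverse. Over all position-named loci above 0 these patterns held for 5.98% and 2.57%, and over all rows above 0 for 3.41% and 1.52%. The 28 and 8 of 387 loci are to be read against those shares, and whether they differ from them was not tested. Of the 28 loci 17 were intergenic, as were 3 of the 8. The 28 include both copies of an X chromosome pair with equal values, described below. They also include 2 loci of 576 bp with equal values of 0, 0, 1 and 1.

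In summed signal the groups overlapped, and a single locus decided the sum. All 17299 loci together held 58.31, 115.6, 74.75 and 79.32 CPM in control 1, control 2, knockdown 1 and knockdown 2, with control libraries averaging 86.98 ± 40.54 and knockdown libraries 77.04 ± 3.235 (SD, n = 2). They made up 2.25% of the counts of all position-named loci in the controls and 2.09% in the knockdown. An intergenic locus on chromosome 9 held 77.5%, 84.9%, 46.6% and 54.8% of the sum in the 4 libraries. Without it the sums were 13.11, 17.51, 39.93 and 35.84 CPM, with the knockdown libraries above both controls, and the means were 15.31 ± 3.112 and 37.88 ± 2.893 (SD, n = 2), 2.47-fold higher in the knockdown. Taking out also the 6 loci called higher below, which were selected on this contrast, left 12.99, 17.2, 23.75 and 20.68 CPM, 1.47-fold higher. The ratio of the whole sum depended on control 2: as a log2 ratio it was -0.18 with all libraries and 0.40 without control 2.

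**Figure D2:**
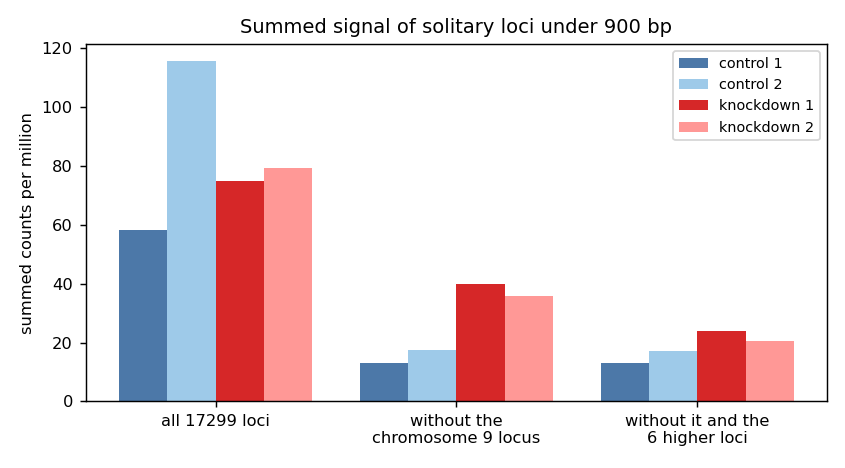
Summed CPM in each of the 4 libraries over all solitary loci under 900 bp, over all but the chromosome 9 locus, and over all but that locus and the 6 loci called higher. The tall bar of control 2 at 115.6 is carried by the chromosome 9 locus, and without it the knockdown bars of 39.93 and 35.84 stand above the control bars of 13.11 and 17.51.

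Only 12 of the 17299 loci had enough counts for a test across libraries. They passed the count filter of edgeR, and since a locus can pass through the group where it is high, the 12 do not stand for all the loci. All 12 are described here, the one on chromosome 14 outside the rule for named loci and after its values were seen. In edgeR's quasi-likelihood test with Benjamini-Hochberg adjustment over 13859 genes and loci, 6 were called higher in the knockdown at an adjusted p below 0.05 and 0 were called lower (at an unadjusted p below 0.05, 6 higher and 1 lower; limma called 6 higher and DESeq2 4). In the same fit 5.75% of all rows were called higher and 1.8% lower, and among the 1038 position-named loci tested 18.7% were higher and 1.06% lower. By the values alone, both knockdown libraries lay above both controls at 8 of the 12 and below them at 1. Over all rows tested these shares were 25.3% and 26.8%.

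**Figure D3:**
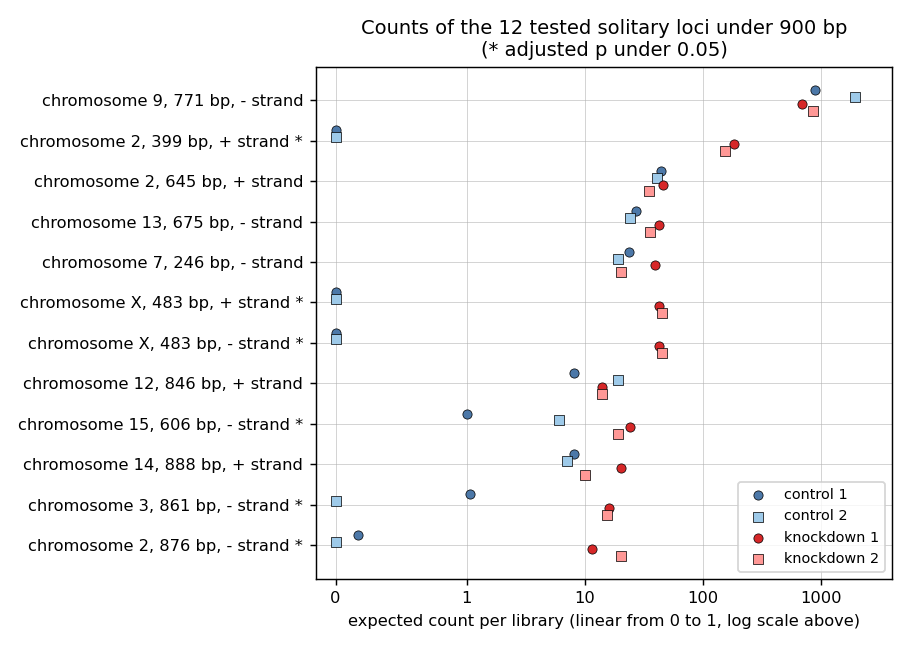
Expected counts in each library for the 12 solitary loci under 900 bp that were tested, ordered by total, on an axis that is linear from 0 to 1 and logarithmic above. Asterisks mark the 6 loci called higher, whose control counts run from 0 to 6 and whose knockdown counts run from 11.46 to 181.

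The largest gain was at an intergenic locus of 399 bp on chromosome 2 (chr2:81989976-81990374, plus strand). It had 0, 0, 181 and 152 expected counts in control 1, control 2, knockdown 1 and knockdown 2, which is 0, 0, 9.227 and 7.767 CPM. Both controls were empty and both knockdown libraries full, so the fold is a bound: at least 111-fold higher against a floor of 3 counts over the control group (edgeR adjusted p = 0.0001614). In TPM, which divides by effective length before scaling each library to the same sum, the level was 80.49 and 67.03 in the knockdown libraries. Nothing nearby had enough counts for a test. Within 100000 bp lay 2 other position-named loci, both at 0 in every library, and 1 annotated gene, which had too few counts to be tested. The nearest gene on the same strand was 62847 bp away.

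A pair of loci on chromosome X had identical values. Both are intergenic and 483 bp long, at chrX:124283954-124284436 on the minus strand and chrX:125103173-125103655 on the plus strand. Each had 0, 0, 42.5 and 45 expected counts in the 4 libraries, or 12.05 and 12.69 TPM in knockdown 1 and knockdown 2, and at least 29.1-fold higher in the knockdown (edgeR adjusted p = 0.001142). RSEM divides reads that fit several places, and whether these reads fit both loci was not tested. The equal values are to be read as 1 measurement, although the tallies of the 12 tested loci count both copies. With the pair as 1 row, 5 of 11 tested loci were called higher. Summed, the pair had 0, 0, 85 and 90 counts, at least 58.2-fold higher (edgeR adjusted p = 0.0003366 with the pair as 1 row), an analysis added after the data had been seen.

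The loci nearest this pair lie in mirrored order, and those farther off had no mirrored counterpart. The copies are 818736 bp apart on opposite strands. In the stretch from 100000 bp before the first to 100000 bp after the last there were 57 position-named loci. Of the 33 on the side of the minus-strand copy, 9 (that copy among them) had a counterpart of equal length on the opposite strand at the mirrored distance, with offsets of at most 1 bp. The 8 mirrored neighbours on each side were at 0 in all libraries. Of the 57 loci 4 were above 0 in any library, the pair among them. No sequence of either copy was used, so their similarity was not measured.

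**Figure D4:**
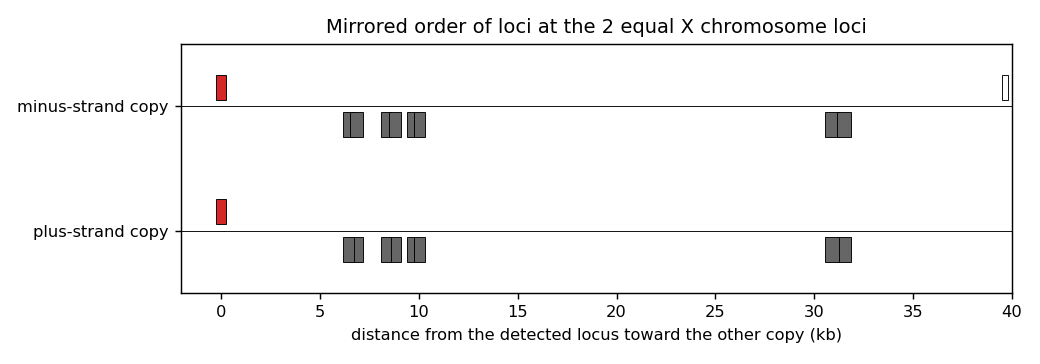
Position-named loci within 40 kb of the 2 equal X chromosome loci, drawn as boxes to scale by distance (kb) from the detected locus toward the other copy. Boxes above the line are on the strand of the detected locus and boxes below it on the other strand. Red marks the detected loci, grey the mirrored loci at 0 in every library, and open a locus with no mirrored counterpart. The grey boxes stand at matching distances in both rows.

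Another gain between genes was at a locus of 861 bp on chromosome 3 (chr3:132521209-132522069, minus strand). Its expected counts were 1.07, 0, 15.91 and 15.45 in control 1, control 2, knockdown 1 and knockdown 2. The knockdown libraries were close to each other and far above the controls. With so few control counts the ratio of summed counts was 30.9 with a 95% exact binomial interval from 5.16 to 1260 (edgeR adjusted p = 0.00723). The 6 other position-named loci within 100000 bp were all at 0. DESeq2 gave an adjusted p of 0.06191, and edgeR without control 2 gave 0.08322, so the call did not hold under those settings.

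The remaining gains were inside genes whose own counts did not rise. Sel1l2 encodes a paralogue of the Sel1l adaptor of endoplasmic reticulum protein degradation. A locus of 876 bp in one of its introns and on its strand (chr2:140313838-140314713, minus strand) had 0.17, 0, 11.46 and 20.13 expected counts, at least 10.5-fold higher in the knockdown with the control count rounded to 0 (edgeR adjusted p = 0.01189; 0.08662 without control 2). Sel1l2 itself was at 0 in all 4 libraries. Of 7 other position-named loci within 100000 bp, 1 was above 0, with 0, 0, 2.42 and 2 counts.

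Gm2682 is a long non-coding RNA gene on chromosome 15. A locus of 606 bp in an intron of it, on its strand (chr15:60155308-60155913, minus strand), had 1, 6, 24 and 19 expected counts, averaging 0.1792 ± 0.1813 CPM in control and 1.097 ± 0.1786 CPM in knockdown libraries (SD, n = 2). The log2 fold change was 2.60 (SE 0.61) with an edgeR adjusted p of 0.03195. The counts of Gm2682 went the other way, with 179, 409, 126 and 142, both controls above both knockdown libraries (log2 fold change -1.11, SE 0.34, edgeR adjusted p = 0.08817). This was the least stable of the 6 calls: the adjusted p was 0.1039 by DESeq2, 0.09848 by edgeR without control 1 and 0.06274 without control 2.

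The locus with the most reads was not called. It is the intergenic locus of 771 bp on chromosome 9 (chr9:48522394-48523164, minus strand), with 886, 1914.99, 683 and 850.98 expected counts and 111.65, 239.85, 84.17 and 104.9 TPM in control 1, control 2, knockdown 1 and knockdown 2. Control 2 stood far above the others. Both knockdown libraries lay below control 1, at 34.82 and 43.49 CPM against 45.2 CPM. Control libraries averaged 71.67 ± 37.43 CPM and knockdown libraries 39.15 ± 6.128 (SD, n = 2), with a log2 fold change of -0.84 (SE 0.30) and an edgeR adjusted p of 0.1269. The call turned on single libraries: the adjusted p was 0.0122 without control 1, 0.02671 without knockdown 1 and 0.0002996 without knockdown 2, all lower in the knockdown. Without control 2 the log2 fold change was -0.20 and the adjusted p 0.6599. With the replicate number as a block, edgeR called it lower (log2 fold change -0.76, adjusted p = 0.01331). Whether the replicate numbers pair libraries is not known. The nearest gene on the same strand was 15333 bp away, and the 1 other position-named locus within 100000 bp was at 0.

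The other 5 tested loci did not pass the test. At 2 of them both knockdown libraries lay above both controls. An intergenic locus of 675 bp on chromosome 13 (chr13:24770402-24771076, minus strand), 8478 bp from Gmnn, the gene of the replication inhibitor geminin, had 27, 24, 42.45 and 35.58 expected counts (log2 fold change 0.63, SE 0.33, edgeR adjusted p = 0.2984). An intergenic locus of 888 bp on chromosome 14 (chr14:27573052-27573939, plus strand) had 8, 7, 20 and 10 (log2 fold change 1.01, SE 0.53, edgeR adjusted p = 0.3082). At the other 3 the groups overlapped. The intergenic locus of 645 bp at chr2:118556235-118556879 on the plus strand had 43.97, 40.82, 46 and 35.05 expected counts (edgeR adjusted p = 0.9508). The locus of 846 bp at chr12:17929124-17929969 on the plus strand, in an intron of the pseudogene Gm49329, had 8, 18.89, 14 and 14 (edgeR adjusted p = 0.9553).

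The Ctsd locus, whose coding stretch is printed above, had reads in every library. This 246-bp locus (chr7:142380732-142380977, minus strand) overlaps exons of Ctsd and of the overlapping gene Gm49369 on their strand. It had 23.61, 18.87, 39 and 20.03 expected counts, with knockdown 1 high and the groups overlapping (edgeR adjusted p = 0.5601). Its effective length was 25.9, so these few counts amounted to 61.72, 40.02, 102.35 and 52.12 TPM. Ctsd had 23484.01, 18490.44, 23124.71 and 22972.57 counts. Reads of an exon that the files list both as part of a gene and as a locus were divided between them by RSEM's estimate, so the value of the locus is uncertain. The Cnbp locus, the zinc-knuckle stretch printed above, had 7.04, 10.05, 0 and 2.33 expected counts and was not tested, both controls lying above both knockdown libraries. Cnbp had 13364.96, 13741.95, 11131 and 12259.67 (log2 fold change -0.19, SE 0.14, edgeR adjusted p = 0.4523). The Ctse locus was at 0 in every library.

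Few genes around the loci were called. Within 100000 bp of the 12 tested loci, 0 tested genes were called in either direction by edgeR at the adjusted threshold, Gm2682 with its log2 fold change of -1.11 included. Few genes there could be tested. Around the called loci on chromosomes 2, 3 and X the number was 0, and around the one on chromosome 15 it was 1. Around each locus not called it was 2 to 4. Whether genes near the called loci changed was therefore hardly tested. Genes that hold a locus with at least 1 count in an intron on their own strand numbered 68, of which 40 were tested. Raet1e, which encodes a ligand of the NKG2D receptor, was the 1 called higher, with a log2 fold change of 1.63, and 0 were called lower. For introns on the other strand 51 of 70 host genes were tested. Chst13, a chondroitin sulfotransferase gene, was the 1 called higher, with 1.68, and 0 were called lower. These are 2.5% and 1.96% of the hosts, against 4.7% of all annotated genes tested that were called higher and 1.86% called lower.

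Below the filter stood 20 more loci with at least 10 counts over the 4 libraries. At 10 of them both knockdown libraries lay above both controls, at 1 (the Cnbp locus) below, and at 9 the groups overlapped. Among all 3725 rows of that kind the shares were 21.5% above and 19.5% below. The following were picked after their values were seen. The intergenic locus of 684 bp at chr1:58704909-58705592 on the plus strand had 1, 0, 12 and 8 expected counts. On chromosome 17 a locus of 750 bp (chr17:55394196-55394945, plus strand) had 0, 0, 7.76 and 7.67, and on chromosome 13 a locus of 360 bp (chr13:68091095-68091454, plus strand) had 0, 0, 8 and 6. Each of these 3 was empty or nearly so in both controls. A locus of 585 bp at chr5:15677339-15677923 on the minus strand had 0, 1, 9.12 and 8.36. The widest spread inside a group was in the controls at a 387-bp locus in an intron of the zinc finger gene Zfp369, on the other strand (chr13:65300160-65300546, minus strand), with 2, 14, 3 and 7. Over all loci that were not tested the sums were 7.35, 11.58, 15.52 and 14.82 CPM, with both knockdown libraries above both controls.

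Setdb1 itself was low in the knockdown libraries, with 1003, 1159.64, 215 and 168 counts, or 55.3 ± 5.837 against 9.773 ± 1.68 CPM (SD, n = 2; log2 fold change -2.48, SE 0.18, edgeR adjusted p = 0.00013). Among 34 genes of retroelement silencing 32 were tested, with a median log2 fold change of -0.12 beside -0.00 over all rows. Called higher were 2, Atf7ip, the partner that stabilises Setdb1, and Zfp809, a KRAB zinc finger protein that binds retroviral primer binding sites, with log2 fold changes of 1.10 and 0.92. Called lower were 2, Setdb1, which is the knocked-down gene itself, and the methyltransferase gene Suv39h2, the latter at -0.82. Over all rows tested 5.75% were called higher and 1.8% lower. Hepatocyte markers were mixed: of 10 genes 8 were tested, Alb was called higher and Hnf4a lower, and Ttr (0, 0, 5 and 3 counts) and Apoa1 (7, 1, 7 and 2) were near 0. Most of the list was abundant: Alb lay between 601.6 and 1236 CPM, Afp between 748.6 and 1056, Trf between 511.3 and 664.9 and Hnf4a between 142.9 and 237.5 over the 4 libraries. Among markers of other cell types some differed between the groups, and others did not or were near 0. Summed over 4 genes each, macrophage markers held 11.1, 8.47, 17.2 and 19.4 CPM with Cd68 called higher. In that list Adgre1 had 0, 0, 5 and 3 counts and Lyz2 24, 20, 5 and 8, the latter with both controls above both knockdown libraries (log2 fold change -1.72, edgeR adjusted p = 0.06128). Endothelial markers held 0.51, 0.41, 2.14 and 1.07 CPM, nearly all from Pecam1, which was not called (edgeR adjusted p = 0.05309). Cdh5, Kdr and Tek had at most 2 counts in a library. Fibroblast markers held 1450, 1570, 1670 and 1630 CPM, nearly all from Dcn, which was not called (edgeR adjusted p = 0.5859). Col1a1 was called higher at 0.8163, 0.7687, 3.059 and 4.037 CPM. Pdgfra was not called, and Col3a1 had at most 1 count in a library. The T cell marker Cd3e was at 0 in all libraries. In bulk RNA, fewer cells of a type and less RNA per cell cannot be told apart, and the part of these differences in the values of the loci was not tested.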

How the data were processed

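Total RNA was extracted with a spin-column kit and made into strand-marking libraries, per the labels' protocols. The submitters' processing notes give the genome build under both of its names, GRCm38 and mm10, and list the tools FastQC, STAR, RSEM and DESeq2. The versions, the annotation, the filters and whether strand was used are not given in the sources read for this work. The authors deposited RSEM tables of expected counts and TPM per row, per the file headers, and FPKM that were not used here. Reads that fit several rows are divided among them by estimate, so loci that repeat elsewhere or overlap a gene are less certain, and a locus opposite a gene may carry its reads unless strand was counted.

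Expected counts were rounded. Genes and loci were fitted together in edgeR 4.0.16 (R 4.3.3; TMM, filterByExpr, group alone, quasi-likelihood F-test), leaving 13859 rows of which 1038 were loci, with Benjamini-Hochberg adjustment over all of them and a threshold of 0.05. The test was checked on simulated data with log2 fold changes of at most 2 in either direction. Larger changes against empty controls were not covered by that check. CPM used the sum over all rows. Place in genes came from GENCODE M21, in which 54723 of 54838 gene identifiers matched. Folds against 0 control counts are bounds at 3 counts over the group. A count within 0.005 of an integer was taken as whole. Named loci were those called, the 8 of highest mean CPM, the largest contributor to the sum and those at the length limit. Values of 2 genes are not reported here. The loci, gene lists and markers were chosen with earlier results of these data known. Deviations of same-numbered libraries from their group means had a correlation of -0.138 over the rows tested. With 2 libraries a group this is 1 contrast, so it cannot decide whether the numbers pair libraries. Alternatives covered scaling, filters, tools (DESeq2 1.42.0, limma 3.58.1 on log2(TPM + 1)), adjustment, blocks, each library left out, and the rule's gap, strand and length.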

Additional observations from a re-analysis of the deposited data

How the results depend on the processing

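The 2 loci on chromosome X and the 399-bp locus on chromosome 2 were called higher under every alternative but the one without a count filter, where 0 of 375 loci were called higher (adjusted p 0.1135 for chromosome 2 and 0.1377 for each X locus). The 6 higher calls became 3 with at least 1 CPM in 2 libraries and 3 under 600 bp, and ranged from 3 (without control 2) to 6 when each library was left out. Lower calls ranged from 0 to 1 when each library was left out. With the replicate block 1 locus was lower and with crossed numbers 1, an alternative added after the data were seen; it was the chromosome 9 locus, at -0.76 (edgeR adjusted p 0.01331) and -0.76 (0.01241). The block changed no other call of these loci.

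The median log2 fold change of the tested loci was 1.80 (1.80 with loci at 0 in the controls set to their bound), against -0.30 for all loci tested. It was 0.63 with at least 1 CPM in 2 libraries, 1.01 with the X loci summed, 0.94 by limma, 2.33 with no filter, 2.60 with a chain gap of 5000 bp, 8.46 under 600 bp, 2.60 without exonic loci and 0.52 to 3.10 with each library left out. The silencing list had 0 higher and 1 lower by limma, 0 and 0 with no filter, and 0 to 2 higher and 1 to 3 lower with a library left out. The log2 ratio of the summed CPM, -0.18, ranged from -0.59 to 0.40 with a library left out, and was 1.80 under 600 bp, 1.31 without the chromosome 9 locus and 0.56 without it and the called loci. The log2 ratio of detected loci, 0.51, was 1.13 at a minimum of 5 counts and 0.50 without the tested loci. Single loci changed sign without a library: chromosome 12 (0.07) to -0.40 without control 1 (at most 0.80 without control 2), chromosome 2 at 118556235 (-0.05) to 0.02 without control 1 and 0.14 without knockdown 2 (-0.25 without knockdown 1), and chromosome 7 (0.47) to -0.075 without knockdown 1 (0.88 without knockdown 2). Removing a library or filtering changes the rows tested; other causes were not tested. A library left alone in its group was assumed to vary like the other group.

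With 2 libraries a group, 12 of 17299 loci had enough counts to be tested, and the others were not tested at this depth.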
